A study of Drosophila melanogaster with 12 samples.

Results

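The 10 genes described here are the eye pigment genes w, st, bw, v, cn, Pu, pr, se and ry, together with y, a gene of cuticle colour. They were taken by gene symbol from the 17589 features of the count tables, and the list was drawn up with earlier results of these data known. Mutations in the eye pigment genes change the colour of the fly eye, and w, v and y are also the visible markers by which most fly transgenes are followed. A read counted for w, v or y can therefore come from the native gene or from a marker copy inside a construct, and the counts do not tell these apart.

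The 3 genotypes were represented by 4 RNA-seq libraries each, and a library pooled 20 heads of flies aged 2 days, with 10 of each sex. ND-75KDstrong and ND-75KDweak flies each carried a hairpin RNA against ND-75, a core subunit of mitochondrial complex I, and controls came from a cross to the w[1118] strain and carried no hairpin. All 3 genotypes carried nSyb-Gal4, which drives expression in neurons, and, per the methods but not the sample labels, Tub-Gal80ts, a temperature-sensitive inhibitor of Gal4. No control hairpin line was included, so an effect of ND-75 loss and an effect of the genetic background of a hairpin line cannot be told apart.

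The stocks differ in these very genes, per the strain list of the study. The strong hairpin stock, from the TRiP collection, carries mutant alleles of y, sc, v and sev on the X chromosome, has no w mutation listed, and its insertion is marked with functional y and v genes. The weak hairpin stock, from the Vienna KK collection, carries the w[1118] deletion allele, and the list does not print the markers of its insertion. As background, insertions of this collection carry a mini-white gene in a landing site marked with a functional y gene. The nSyb-Gal4 stock is mutant for y and w, and the Tub-Gal80ts insertion is marked with mini-white. The sources used here do not give the direction of the crosses, and so which X chromosome the males inherited.

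The red and brown colours of the eye come from separate pathways that end in pigment granules of the retinal pigment cells. Brown ommochromes are made from tryptophan, with v, the tryptophan dioxygenase, at the first step and cn, the kynurenine monooxygenase, further down. Red drosopterins are made from GTP by Pu, the GTP cyclohydrolase, pr, the pyruvoyl tetrahydropterin synthase, and se, a glutathione transferase of the omega class that makes a late precursor, while ry, the xanthine dehydrogenase, acts on side products. The half-transporter w pairs with st to carry ommochrome precursors into the granule and with bw to carry pteridine precursors.

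Libraries held 22034203 to 34169998 counts in ND-75KDstrong, 19309456 to 32441604 in ND-75KDweak and 20072771 to 30321577 in control flies. Control replicate 3 stood apart, with 12966 features that had a count, against 13729 to 14967 in the other libraries. Levels are given as CPM, which relate a count to the library total, with TMM scaling over the 12 libraries. Fold changes and their p-values come from the quasi-likelihood test of edgeR, fitted for each comparison to its own 8 libraries, and a gene is called where the p adjusted by Benjamini and Hochberg's procedure lies under 0.05. ND-75, the targeted gene, had 454 to 639 CPM in ND-75KDstrong, 565 to 665 CPM in ND-75KDweak and 716 to 1380.3 CPM in control heads. Its fold change missed the threshold in both knockdowns (log2 fold change −0.79, adjusted p = 0.117 in ND-75KDstrong, and −0.59, adjusted p = 0.116 in ND-75KDweak), although neither knockdown overlapped with the controls. DESeq2 gave an adjusted p of 0.0152 in ND-75KDstrong, but only 4 of 48 alternative fits over all comparisons called ND-75. All 23 photoreceptor markers examined had counts in every genotype.

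**Figure D1:**
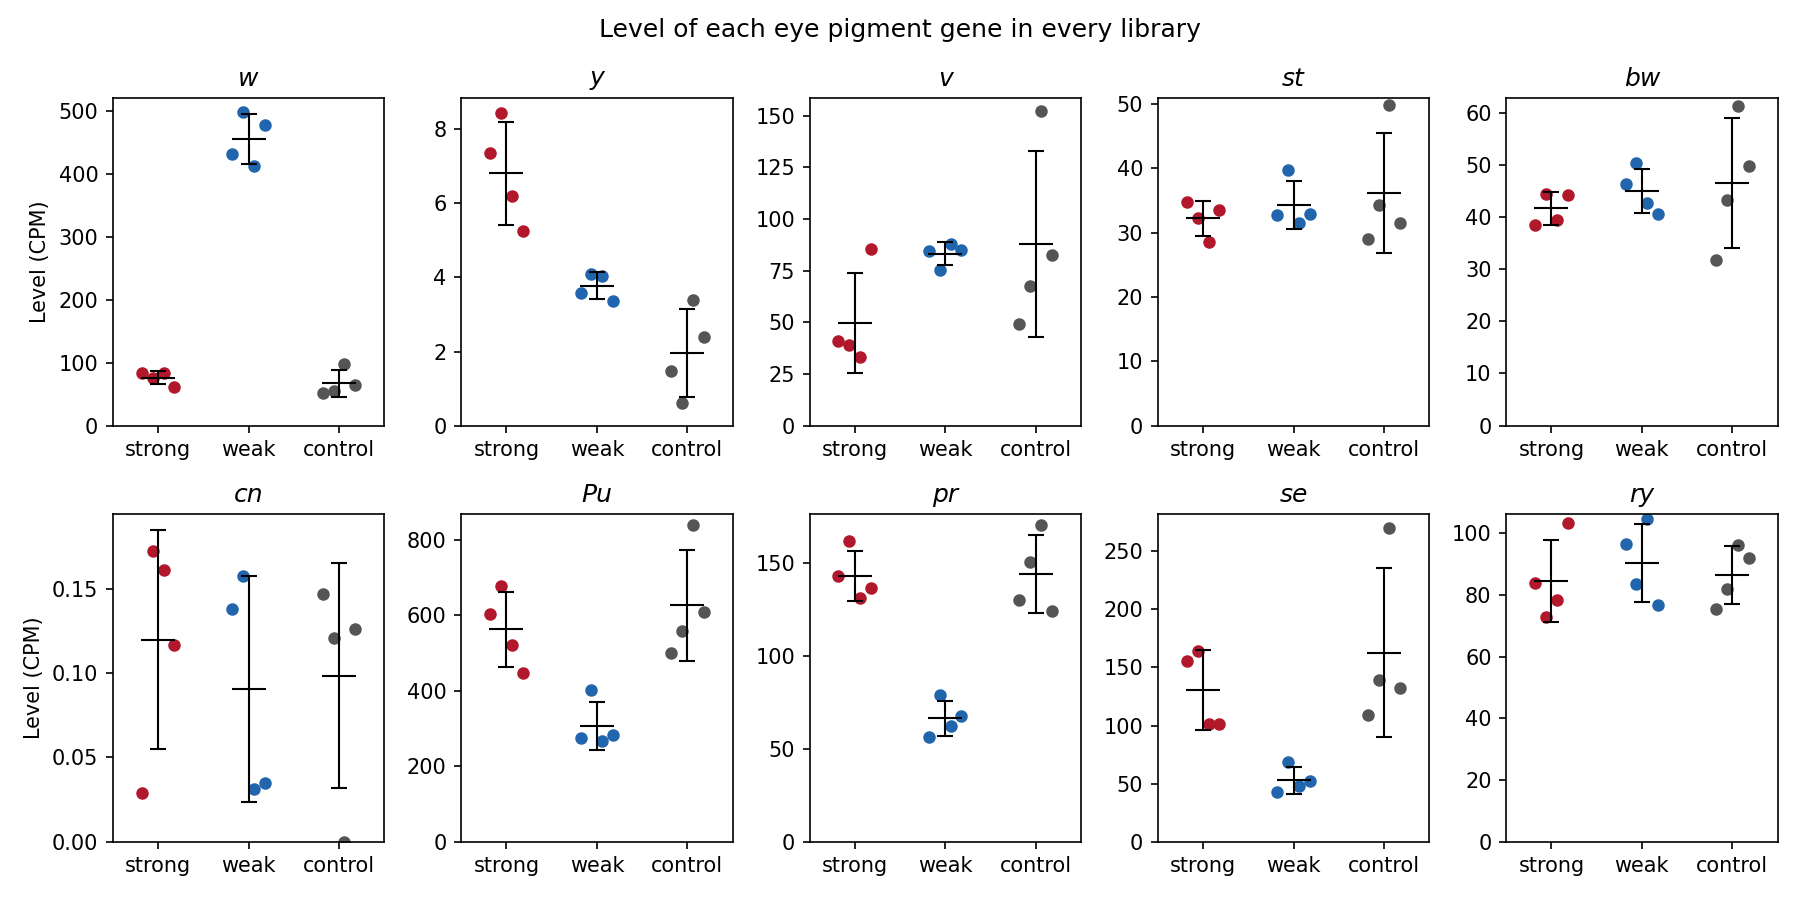
Level of each of the 10 genes in CPM (y axis, starting at 0) in the ND-75KDstrong (strong), ND-75KDweak (weak) and control libraries, with 1 point per library in the order of replicate number and a bar for mean ± SD (n = 4). The 4 ND-75KDweak libraries lie above all others for w, between 413 and 498 CPM, and below all others for Pu, pr and se, while y is highest in ND-75KDstrong, between 5.24 and 8.45 CPM.

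Of the 3 genes that double as transgene markers, w was raised in ND-75KDweak heads and y in ND-75KDstrong heads, while v did not pass the test in any comparison. The level of w was 84.5, 75.5, 83.0 and 62.2 CPM in ND-75KDstrong, 432, 498, 413 and 479 CPM in ND-75KDweak and 51.9, 55.2, 97.4 and 64.0 CPM in control libraries. Every ND-75KDweak library thus lay far above every other, and the ND-75KDstrong and control libraries overlapped. In ND-75KDweak heads w was 6.83-fold higher than in controls (log2 fold change 2.77 ± 0.21 SE, edgeR adjusted p = 5.41e-05, higher in 4 of 4 libraries). It was the only member called higher and the only one with all ND-75KDweak libraries above all controls. Of the 10415 features tested, 2.56% were called higher and 6.57% had a range above the controls.

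Between ND-75KDstrong and ND-75KDweak heads the log2 fold change of w was −2.56 ± 0.13 (SE), 5.91-fold lower in ND-75KDstrong (edgeR adjusted p = 7.35e-06). Against controls the ND-75KDstrong level differed by 0.19 on the log2 scale (95% interval −0.28 to 0.65, edgeR adjusted p = 0.837). Without control replicate 3 and ND-75KDstrong replicate 4 this difference was 0.53 with an adjusted p of 0.0253. The gene lies on the X chromosome of the BDGP6 assembly, from 2790599 to 2796466 on the minus strand with 6 exons, inside the region of kirre on the opposite strand, a cell adhesion gene of the immunoglobulin superfamily. The libraries do not keep strand. kirre had 401 to 1005 counts per library, beside 1059 to 13697 for w, and was not called in any comparison, and its part in the counts of w was not tested.

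For y, which encodes a secreted protein needed for black cuticle pigment, the levels were low, at 7.37, 8.45, 6.19 and 5.24 CPM in ND-75KDstrong, 3.59, 4.10, 4.05 and 3.36 CPM in ND-75KDweak and 1.47, 0.603, 3.38 and 2.39 CPM in control libraries. The raw counts behind them were 135 to 252 in ND-75KDstrong, 78 to 130 in ND-75KDweak and 15 to 86 in control libraries. All ND-75KDstrong libraries lay above all others, while control replicate 3 reached into the range of ND-75KDweak. Against controls y was 3.45-fold higher in ND-75KDstrong heads (log2 fold change 1.79 ± 0.40 SE, edgeR adjusted p = 0.0439), the only call among the 9 tested members. Of the 10522 features tested in this comparison 2.37% were called, 1.78% higher and 0.589% lower, and 4.65% had a range wholly above and 4.08% wholly below that of the controls. This call was lost when any 1 of control replicates 1 and 4 and ND-75KDstrong replicates 1, 2 and 3 was left out (edgeR adjusted p = 0.0927 to 0.126), whereas the log2 fold change stayed between 1.49 and 2.18 over all 8 such fits.

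In ND-75KDweak heads the log2 fold change of y against controls was 0.95 ± 0.39 (SE) and was not called (edgeR adjusted p = 0.198). It was called without control replicate 3 and ND-75KDweak replicate 2, at 1.27 with an adjusted p of 0.042. ND-75KDstrong exceeded ND-75KDweak by 0.87 ± 0.18 (SE) on the log2 scale, or 1.82-fold (edgeR adjusted p = 0.0108), although a fit of all 12 libraries together gave an adjusted p of 0.158. The native y gene, on the X chromosome from 356509 to 361245 on the plus strand, lies within CG32816 on the opposite strand. CG32816 had 18.5, 22.2, 19.4 and 9.98 CPM in ND-75KDstrong, 9.07, 9.52, 8.44 and 9.61 CPM in ND-75KDweak and 15.9, 14.6, 11.9 and 14.1 CPM in control libraries. It was called lower in ND-75KDweak than in control heads (log2 fold change −0.61, edgeR adjusted p = 0.0214), where the point value for y was positive, and higher in ND-75KDstrong than in ND-75KDweak heads (0.95, adjusted p = 0.017), as y was. The call against control was lost without control replicate 1 or 2 or ND-75KDweak replicate 1, 3 or 4 (edgeR adjusted p up to 0.0903), and that between the knockdowns without replicate 1 or 3 of either genotype (up to 0.0597). The part of CG32816 in the counts of y was not tested.

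Upstream of y, 3192 bases away, lies CG43182, a short gene from 353067 to 353317. It had no count in any ND-75KDstrong library, 10, 7, 15 and 12 counts in the ND-75KDweak libraries and none in any control library. Reads from this stretch were thus seen in the genotype with the highest w level and in neither of the others. Of the 6 features within 20 kb of y, CG43182 was called lower in ND-75KDstrong than in ND-75KDweak heads, and CG3777 and CG32816 were called higher. CG43182 passed the filter of edgeR only between the knockdowns, through its ND-75KDweak counts alone. Its call there thus adds nothing to those counts. In ND-75KDweak against control edgeR called 1 of the 2 features tested near y, and DESeq2 called 3 of 6 (lowest adjusted p = 3.89e-05). Over all features tested, edgeR called 2.37% in ND-75KDstrong against control, 6.54% in ND-75KDweak against control and 11.3% between the knockdowns. Whether the region around y differs from others was not tested. Near w, 0 of the 2 features tested were called in any comparison by edgeR, and 0 had an unadjusted p under 0.05. DESeq2 called 0 of 3 near w, with 1 at an unadjusted p under 0.05 between the knockdowns. Near v, 0 of 3 were called by edgeR, with 1 at an unadjusted p under 0.05 between the knockdowns, which DESeq2 called (adjusted p = 0.0295).

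The remaining marker, v, was among the most variable members, with 40.9, 39.1, 33.3 and 85.5 CPM in ND-75KDstrong, 84.6, 75.1, 87.7 and 85.2 CPM in ND-75KDweak and 49.4, 67.7, 152 and 82.6 CPM in control libraries. ND-75KDstrong replicates 1 to 3 lay below every other library, replicate 4 lay with ND-75KDweak, and control replicate 3 was the highest of all 12. Its log2 fold change was −0.82 ± 0.37 (SE) in ND-75KDstrong against control (edgeR adjusted p = 0.438) and −0.73 ± 0.26 against ND-75KDweak (adjusted p = 0.11). Without ND-75KDstrong replicate 4 it was −1.13 against ND-75KDweak, with an edgeR adjusted p of 1.06e-04. Without that library and control replicate 3 it was −0.79 against control, with an edgeR adjusted p of 0.0323. Both libraries left out were the highest of their genotype for v, so these fits are not independent support. Of 16 alternatives, 5 called v between the knockdowns, and 1 of 16 called it in ND-75KDstrong against control. In ND-75KDweak the difference from control was −0.07 (95% interval −0.69 to 0.55, adjusted p = 0.906). The native gene lies on the X chromosome from 10923972 to 10925631 on the plus strand and overlaps no other gene of the tables.

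Another gene of these stocks, the receptor tyrosine kinase sev, which specifies photoreceptor R7 and is mutant in the strong hairpin stock, had 77.4 to 92.7 CPM in ND-75KDstrong, 75.9 to 105 CPM in ND-75KDweak and 92.8 to 120.0 CPM in control libraries. It was not called in ND-75KDstrong against control (log2 fold change −0.34, edgeR unadjusted p = 0.0321, adjusted p = 0.362). The ND-75KDstrong libraries nevertheless all lay below the controls, by a small margin (92.66 against 92.83 CPM). Of all features tested, 4.08% had a range wholly below the controls. The proneural gene sc was not analysed here.

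**Figure D2:**
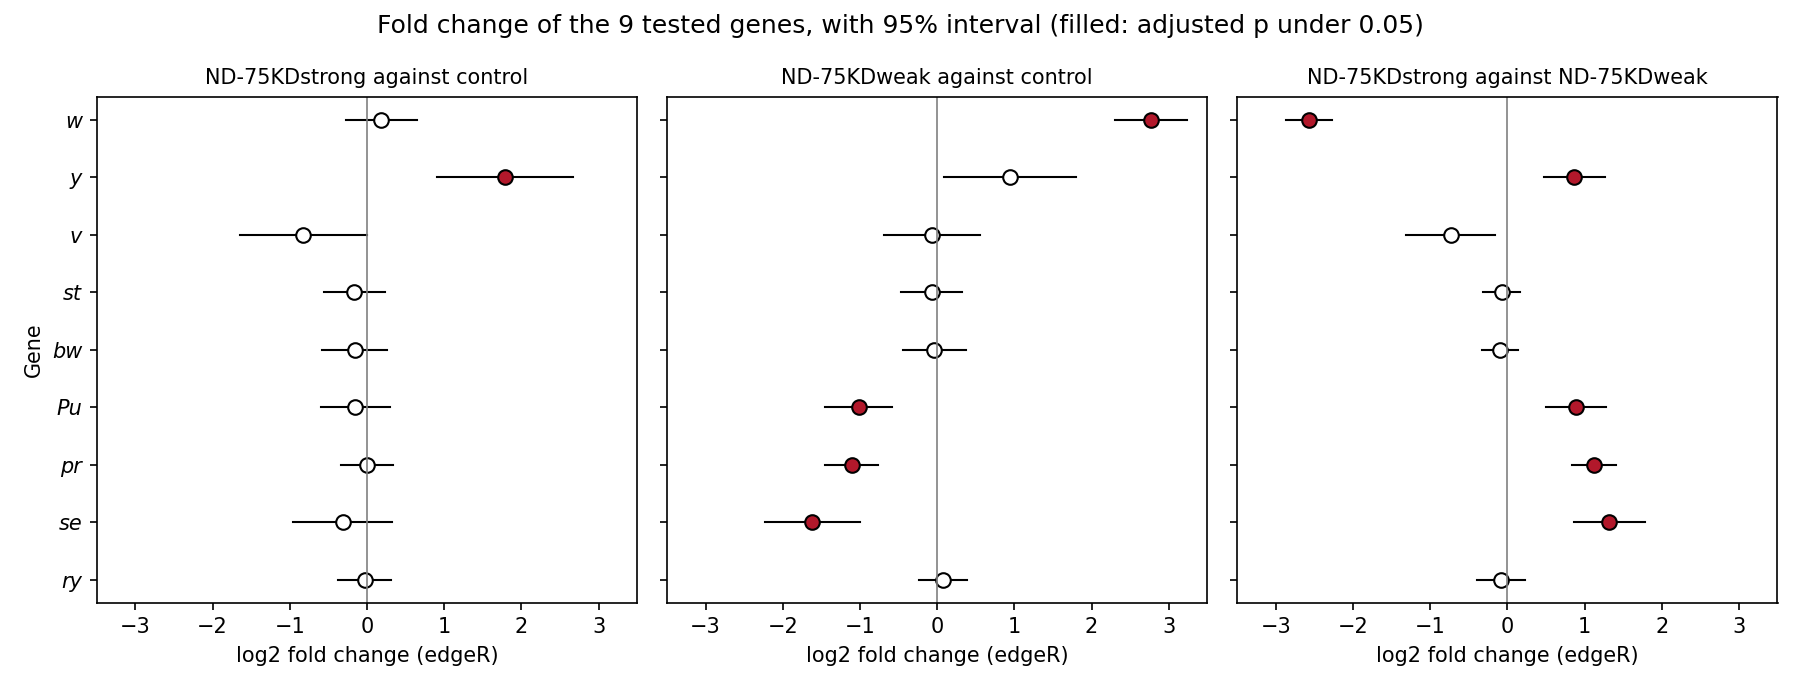
edgeR log2 fold change (x axis) of the 9 tested genes (rows) in the 3 comparisons (panels), with the 95% interval as a line and filled points for an adjusted p under 0.05. ND-75KDstrong differed from control in y alone, ND-75KDweak differed from control in w, Pu, pr and se, and the comparison of both knockdowns had these 4 genes and y.

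The partners of w were not called in any comparison. The level of st was 34.8, 32.2, 28.5 and 33.5 CPM in ND-75KDstrong, 32.8, 39.7, 31.5 and 32.9 CPM in ND-75KDweak and 29.0, 34.3, 49.8 and 31.5 CPM in control libraries. That of bw was 38.5, 44.5, 39.4 and 44.2 CPM in ND-75KDstrong, 46.4, 50.3, 42.7 and 40.5 CPM in ND-75KDweak and 31.7, 43.2, 61.3 and 49.8 CPM in control libraries. The genotypes overlapped for both genes, and control replicate 3 was the highest library for each. Their log2 fold changes against control were −0.16 (95% interval −0.56 to 0.23) for st and −0.16 (−0.58 to 0.26) for bw in ND-75KDstrong, and −0.07 (−0.46 to 0.32) and −0.04 (−0.45 to 0.37) in ND-75KDweak, with edgeR adjusted p of at least 0.837.

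Divided by gene length, CPM per kb can be compared between genes. The ratio of w to st within a library was 2.22, 2.14, 2.66 and 1.69 in ND-75KDstrong, between 11.4 and 13.3 in ND-75KDweak and 1.63, 1.47, 1.79 and 1.86 in control libraries. The ratio of st to bw was close to 1 throughout, at 0.922 to 1.15 in ND-75KDstrong, 0.902 to 1.03 in ND-75KDweak and 0.805 to 1.17 in control libraries. Outside ND-75KDweak the level of w was thus at most 2.66 times that of either partner, while within it w stood at 10.8 to 13.7 times the level of both. On chromosome arm 3L st spans 16497651 to 16500460, on 2R bw spans 23527805 to 23538499, and each overlaps a gene on the opposite strand, CG43373 for st and mi for bw, and neither of those was called in any comparison.

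**Figure D3:**
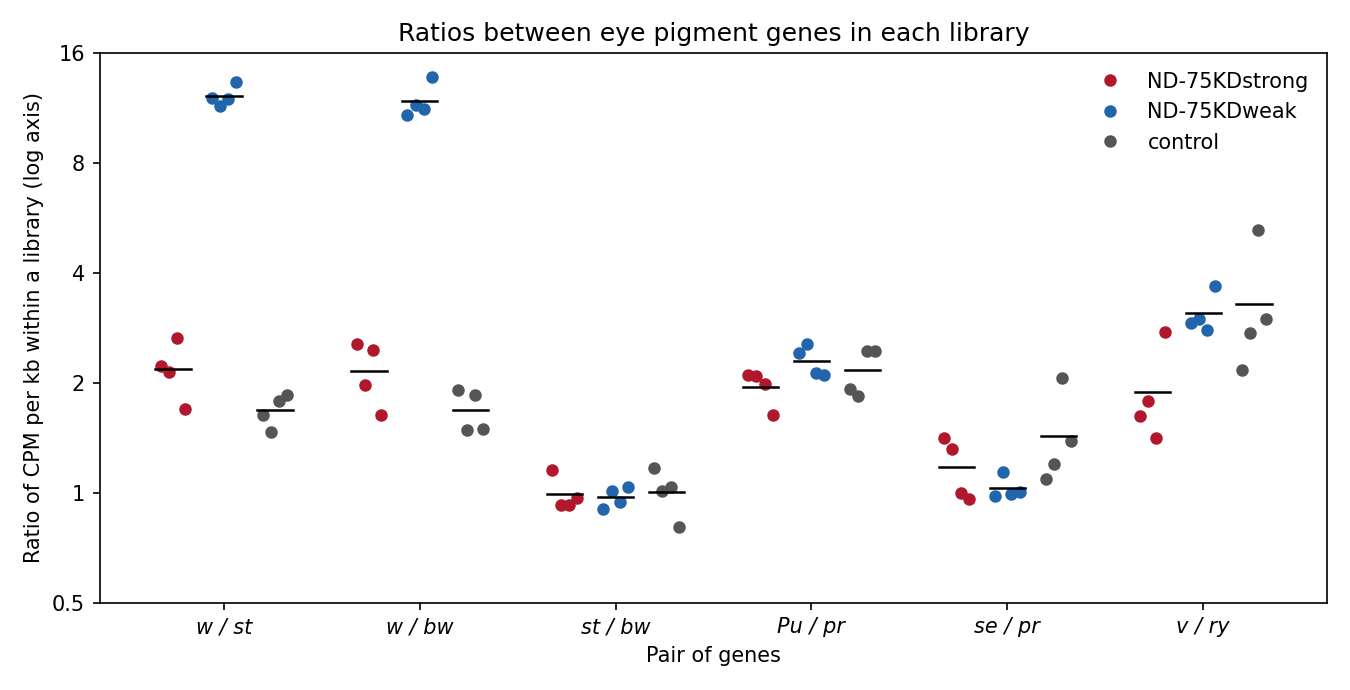
Ratio of CPM per kb between 2 genes within each library (y axis, log scale), with 1 point per library and a bar for the mean of the 4 libraries of a genotype. The ratios of w to st and of w to bw set ND-75KDweak apart, at 10.8 to 13.7, while st to bw overlaps between all 3 genotypes. Pu to pr also overlaps, but between the knockdowns only from 2.09 to 2.10. The ratio of v to ry was 1.41 to 2.75 in ND-75KDstrong and 2.79 to 3.69 in ND-75KDweak. In control libraries it was 2.17 to 5.25, which overlaps both.

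Downstream of v in ommochrome synthesis, cn, on 2R from 7782797 to 7785067, had between 0 and 6 counts in each library, or at most 0.172 CPM, summing to 14 counts in ND-75KDstrong, 8 in ND-75KDweak and 10 in control, and was too low to test. A difference in cn between genotypes was not detectable at this depth. The 5 other ommochrome genes were KFase, kynurenine formamidase, cd, a haem peroxidase of the last step, kar, a transporter of the monocarboxylate family, Kyat, a kynurenine aminotransferase, and z, a regulator of w. 0 of the 5 were called in any comparison by edgeR or DESeq2, with 0, 1 and 1 higher and 0, 1 and 0 lower at an unadjusted p under 0.05 in ND-75KDstrong against control, ND-75KDweak against control and ND-75KDstrong against ND-75KDweak. Their median log2 fold changes were −0.07, −0.10 and −0.07 in these comparisons, against −0.01, −0.01 and 0.02 over all features tested.

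In the drosopterin pathway 3 enzymes were lower in ND-75KDweak heads. Pu, which commits GTP to pteridine synthesis, had 604, 678, 522 and 448 CPM in ND-75KDstrong, 274, 403, 266 and 284 CPM in ND-75KDweak and 500.4, 557, 837 and 608 CPM in control libraries. pr, the next enzyme, had 143, 162, 131 and 136 CPM in ND-75KDstrong, 56.6, 78.9, 62.4 and 67.5 CPM in ND-75KDweak and 130.1, 151, 170.5 and 124 CPM in control libraries. se, which acts later, had 155, 164, 101 and 101 CPM in ND-75KDstrong, 42.6, 69.0, 47.6 and 52.0 CPM in ND-75KDweak and 109, 139, 270.0 and 132 CPM in control libraries. For each of the 3 genes every ND-75KDweak library lay below every other library, and replicate 2 was the highest of the ND-75KDweak libraries.

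Against controls, Pu was 2.03-fold lower in ND-75KDweak heads (log2 fold change −1.02 ± 0.20 SE, edgeR adjusted p = 0.011). pr was 2.15-fold lower (−1.11 ± 0.16, adjusted p = 0.00185), and se was 3.06-fold lower (−1.61 ± 0.28, adjusted p = 0.00571). These were 3 of the 9 members tested, and with w they made 4, where 6.54% of the 10415 features were called, 3.98% lower, and 9.07% had a CPM range wholly below that of the controls. All 3 calls held when each library was left out in turn and when control replicate 3 and ND-75KDweak replicate 2 were left out together. In whole heads, fewer cells that express a gene and less of its RNA per cell cannot be told apart.

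In ND-75KDstrong none of the 3 enzymes was called. Their log2 fold changes against control were −0.15 for Pu (95% interval −0.60 to 0.30), −0.01 for pr (−0.34 to 0.33) and −0.32 for se (−0.96 to 0.33), with edgeR adjusted p of at least 0.784 and overlapping ranges. The difference between the knockdowns was itself called for each, with ND-75KDstrong above ND-75KDweak by 0.89 ± 0.17 for Pu (edgeR adjusted p = 0.00862), 1.12 ± 0.13 for pr (adjusted p = 0.000437) and 1.32 ± 0.21 for se (adjusted p = 0.00258), on the log2 scale with SE. With y these made 4 members called higher, and w was the 1 called lower, in a comparison that called 11.3% of 10638 features, 8.18% higher and 3.09% lower. The same 5 members had ranges that did not overlap, beside 10.6% of features with ND-75KDstrong above and 7.65% with ND-75KDstrong below. The comparison of ND-75KDweak with control and that of ND-75KDstrong with ND-75KDweak share the ND-75KDweak libraries.

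Ratios between the 3 enzymes within a library were not tested. Per kb, the ratio of Pu to pr was 1.64 to 2.10 in ND-75KDstrong, 2.09 to 2.55 in ND-75KDweak and 1.84 to 2.45 in control libraries. That of se to pr was 0.964 to 1.41 in ND-75KDstrong, 0.978 to 1.14 in ND-75KDweak and 1.09 to 2.06 in control libraries. These ranges overlap between genotypes, for Pu to pr only narrowly between the knockdowns. The ratio of se to pr averaged 1.03 in ND-75KDweak and 1.43 in control libraries, and control replicate 3 had the highest. pr lies on chromosome arm 2L from 20073719 to 20075458 and se on 3L from 8520552 to 8521489, and each overlaps the end of a gene on the opposite strand, bwa for pr and GstO2 for se, that was not called in any comparison. se and GstO2 belong to the same family of glutathione transferases, among which the assignment of shared reads is not known. Pu lies on 2R from 21175315 to 21182608, and a protein-coding gene and a tRNA gene within its introns had at most 7 and 3 counts per library.

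ry, which converts hypoxanthine and pteridines and whose loss gives brownish eyes, lies on 3R from 13032528 to 13038020 and overlaps no other gene of the tables. It had 83.9, 72.8, 78.4 and 103 CPM in ND-75KDstrong, 96.6, 83.4, 105 and 76.7 CPM in ND-75KDweak and 75.5, 82.0, 96.3 and 92.1 CPM in control libraries. The genotypes overlapped fully. Its log2 fold change was −0.03 in ND-75KDstrong (95% interval −0.37 to 0.31) and 0.07 in ND-75KDweak (−0.24 to 0.39) against control (edgeR adjusted p = 0.98 and 0.795). The ND-75KDweak interval of ry thus lies above the values of Pu, pr and se.

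Of 12 other genes listed with pteridine and drosopterin synthesis, 11 passed the filter, and Uro, urate oxidase, did not. In neither knockdown was any of the 11 called against control by edgeR or DESeq2, with 1 higher and 0 lower in ND-75KDstrong and 0 higher and 1 lower in ND-75KDweak at an unadjusted p under 0.05. The list includes the biopterin enzymes Sptr, Pcd and Dhpr, the phenylalanine hydroxylase Hn, the xanthine dehydrogenase cofactor genes mal, cin and Mocs1, and the drosopterin genes cl and DhpD, the deaminase for dihydropterin. Paics and AdSL, which act in purine synthesis, are also among the 11. The log2 fold changes of the 11 in ND-75KDweak ran from −0.41 to 0.10, with a median of −0.15. Between the knockdowns 4 of the 11 were higher in ND-75KDstrong and 0 lower at an unadjusted p under 0.05. The median there was 0.20, against 0.02 over all features tested, of which 8.18% were called higher. Mocs1, which makes the precursor of the molybdenum cofactor, was the only one called between the knockdowns, with 35.3, 27.3, 31.0 and 34.9 CPM in ND-75KDstrong and 22.5, 23.8, 25.6 and 21.7 CPM in ND-75KDweak libraries (log2 fold change 0.47, edgeR adjusted p = 0.021). This call was lost without ND-75KDweak replicate 1 or 4 or ND-75KDstrong replicate 1 (adjusted p = 0.0775 to 0.0852).

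**Figure D4:**
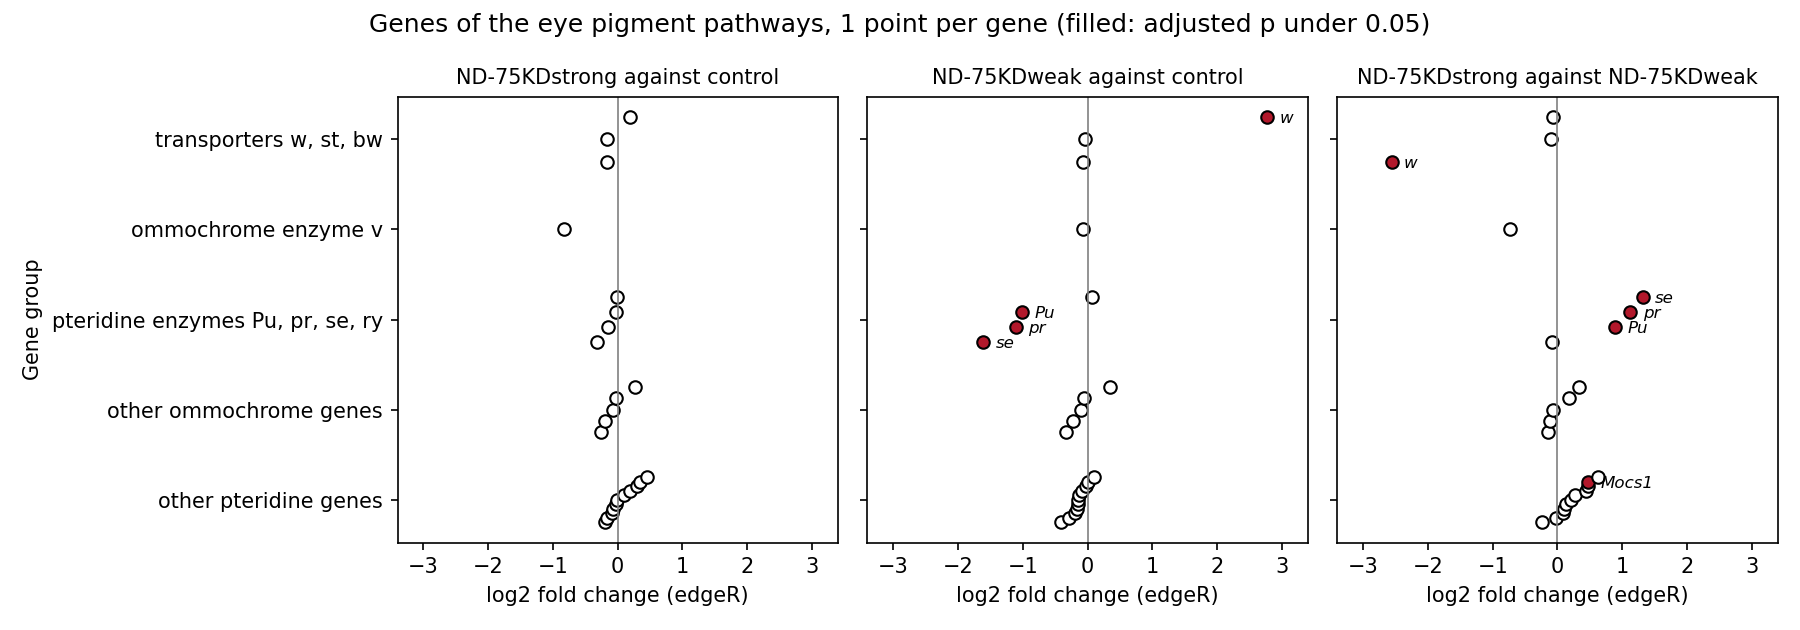
edgeR log2 fold change (x axis) of each tested gene of the eye pigment pathways in the 3 comparisons (panels), by group (rows), with 1 point per gene and filled, named points for an adjusted p under 0.05. In ND-75KDweak against control Pu, pr and se lie between −1.61 and −1.02, while the 11 genes shown as other pteridine genes lie between −0.41 and 0.10. These 11 include the purine synthesis genes Paics and AdSL.

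Genes that build the pigment granule, such as the AP-3 and HOPS subunits, the biogenesis factors of lysosome-related organelles and Rab32, gave no call. 0 of 21 passed in any of the 3 comparisons by edgeR or DESeq2, with 1 lower in ND-75KDweak against control and 2 higher in ND-75KDstrong against ND-75KDweak at an unadjusted p under 0.05. Among 12 other ABC transporters of subfamily G, the family of w, st and bw, 0 were called in ND-75KDstrong against control by edgeR or DESeq2 (2 higher at an unadjusted p under 0.05). CG17646 and CG5853 were called higher in ND-75KDweak than in control heads (log2 fold changes 0.86 and 0.70). At an unadjusted p under 0.05, 5 of the 12 were higher and 1 lower there, and DESeq2 called 3 higher and 0 lower. The median of the 12 was 0.30, against −0.01 over all features, of which 2.56% were called higher and 3.98% lower. CG31121 (0.68) was called higher and CG4822 (−0.93) lower in ND-75KDstrong than in ND-75KDweak heads. Of all features 8.18% were called higher and 3.09% lower in that comparison. The calls of CG5853 and CG31121 were not stable to leaving out 1 library. That of CG5853 was lost without any library except control replicate 2, and that of CG31121 without any except ND-75KDweak replicate 2 and ND-75KDstrong replicate 4 (edgeR adjusted p up to 0.153 and 0.147).

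In the list of cuticle colour enzymes and the yellow family, the relatives of y, 0 of 16 tested genes were called in ND-75KDstrong against control by edgeR or DESeq2 (2 higher at an unadjusted p under 0.05). yellow-d2 was called lower in ND-75KDweak than in control heads (log2 fold change −2.51), where 3.98% of all features were called lower. DESeq2 called 3 lower and 0 higher there. At an unadjusted p under 0.05, 6 of the 16 were lower and 3 higher in ND-75KDweak. Their median was −0.32, against −0.01 over all features tested. Between the knockdowns 6 of the 16 genes were called higher and 1 lower in ND-75KDstrong, where 8.18% of all features were called higher and 3.09% lower. Among them were yellow-d2 (2.27), yellow-e (0.69), yellow-h (0.48) and, lower, yellow-d (−0.56). The call of yellow-d2 against control was lost without ND-75KDweak replicate 4 (edgeR adjusted p = 0.0514), and that of yellow-d without ND-75KDweak replicate 1, 3 or 4 or ND-75KDstrong replicate 2 (up to 0.0662). The rise of y in ND-75KDstrong against control was therefore not accompanied by a call for any relative.

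The genes listed as retinal pigment cell markers were Pdh, rdhB, pinta, ninaG, santa-maria and Crys. Of these, Crys and santa-maria are not confined to pigment cells. Of the 6, 1 was called lower in ND-75KDweak against control, as Pu, pr and se were, and the other 5 had no unadjusted p under 0.05 there. Of all features tested in that comparison, 3.98% were called lower. Over the 6 markers the log2 fold changes there had a median of −0.01 and reached 0.09 at most. The marker called was Crys, a lens protein made by pigment and cone cells (log2 fold change −1.31, edgeR adjusted p = 0.0417). It had 265, 311, 256 and 178 CPM in ND-75KDstrong, 53.5, 172, 65.5 and 57.7 CPM in ND-75KDweak and 189, 217, 220.2 and 244 CPM in control libraries, and was called higher in ND-75KDstrong than in ND-75KDweak (1.55). Without any 1 library other than ND-75KDweak replicate 2 the call against control was lost (edgeR adjusted p = 0.0547 to 0.13), and the call between the knockdowns was lost without ND-75KDweak replicate 1, 3 or 4 or ND-75KDstrong replicate 1 or 2 (up to 0.0683). rdhB, a retinol dehydrogenase of pigment cells, was instead called lower in ND-75KDstrong than in control (−0.88) and ND-75KDweak heads (−0.84), the call against control being lost without control replicate 2 or ND-75KDstrong replicate 2 or 3 (edgeR adjusted p up to 0.101). Of all features, 0.589% were called lower in ND-75KDstrong against control, and 8.18% were called higher and 3.09% lower between the knockdowns. The 6 markers, none at 0, summed to 1587 to 1877 CPM in ND-75KDstrong and 1662 to 1806 CPM in ND-75KDweak libraries. In control libraries they summed to 1628 to 2952 CPM. The ranges of ND-75KDweak and control thus overlap, and the part of these cells in the result was not tested.

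Cuticle protein genes, listed by symbol, were the longest list. The symbol match also took in Cpr, the cytochrome P450 reductase, which is not a cuticle protein. It was not taken out of the numbers given here. Of 50 tested in ND-75KDweak against control, 2 were called higher and 21 lower, and of 53 tested between the knockdowns 25 were called higher and 4 lower in ND-75KDstrong. In ND-75KDstrong against control 1 of 50 was called higher and 2 lower. The share of all features called in either direction was 6.54% in ND-75KDweak against control, 11.3% between the knockdowns and 2.37% in ND-75KDstrong against control. The 103 genes summed to 1856 to 3063 CPM in ND-75KDstrong, 1068 to 1626 CPM in ND-75KDweak and 1737 to 2296 CPM in control libraries, so that ND-75KDweak lay below both, as it did for Pu, pr and se, and the part of cuticle tissue in those results was not tested. By the smallest p these were Ccp84Ag (log2 fold change 1.63), Cpr49Af (−2.16) and Lcp65Ac (−1.07) in ND-75KDstrong against control, and Cpr50Ca (3.68), Ccp84Ag (1.44), Cpr49Af (−2.52), Ccp84Ab (−3.36) and Lcp65Ac (−1.91) in ND-75KDweak against control. Between the knockdowns they were Cpr62Bb (0.99), Ccp84Ab (3.60), Ccp84Ac (229 counts over ND-75KDstrong and 2 over ND-75KDweak libraries), TwdlG (−0.75), Cpr92A (−2.85) and Cpr50Ca (−2.33). The counts of Cpr50Ca were few, summing to 13 in ND-75KDstrong, 56 in ND-75KDweak and 4 in control libraries. Those of Cpr92A summed to 8 in ND-75KDstrong and 52 in ND-75KDweak libraries. Both genes passed the filter in these comparisons through ND-75KDweak alone. In ND-75KDstrong against control the call of Ccp84Ag was lost without ND-75KDstrong replicate 1 and that of Lcp65Ac without control replicate 1 or 2 or ND-75KDstrong replicate 1 or 3 (edgeR adjusted p up to 0.0837).

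Of 14 fat body markers 2 were called higher and 0 lower in ND-75KDstrong against control, 5 higher and 3 lower in ND-75KDweak against control, and 4 higher and 2 lower between the knockdowns. Of all features tested, 1.78% were called higher and 0.589% lower in the first of these comparisons, 2.56% and 3.98% in the second, and 8.18% and 3.09% between the knockdowns. The called markers included the storage protein gene Lsp1gamma (log2 fold changes 1.83, −3.05 and 4.92 in that order), Fbp1 (1.92, −3.75 and 5.69), Fbp2, with 1329 counts in ND-75KDstrong, 5 in ND-75KDweak and 335 in control libraries in all, the yolk protein genes Yp1 (0.94) and Yp2 (0.88) in ND-75KDweak, the takeout gene to (2.65 in ND-75KDweak and −2.22 between the knockdowns) and Apoltp (−0.51) between the knockdowns. In ND-75KDstrong against control the calls of Lsp1gamma and Fbp1 were lost without any 1 library except ND-75KDstrong replicate 4 and, for Lsp1gamma, replicate 1 (edgeR adjusted p up to 0.143). The call of Yp1 was lost without control replicate 2 or ND-75KDweak replicate 1, 3 or 4, and that of Apoltp without any library except ND-75KDstrong replicates 2 and 4 (up to 0.121). Of 23 photoreceptor markers 0 were called in either knockdown against control by edgeR or DESeq2, with 4 lower in ND-75KDstrong and 1 higher and 2 lower in ND-75KDweak at an unadjusted p under 0.05. The main rhodopsin ninaE was called lower in ND-75KDstrong than in ND-75KDweak (−0.51), a call lost without ND-75KDweak replicate 1, 3 or 4 or ND-75KDstrong replicate 1 or 2 (edgeR adjusted p up to 0.134). 0 of 10 neuron and 0 of 7 glia markers were called in any comparison by edgeR or DESeq2, and at an unadjusted p under 0.05 only 2 glia markers were lower, both in ND-75KDstrong against control.

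Per kb, the order of the members differed between genotypes mainly through w. Pu was the most abundant in ND-75KDstrong (261 ± 46.4 CPM per kb, SD, n = 4) and control heads (291 ± 68.6), followed by se (158 ± 41.5 and 197 ± 88.2) and pr (133 ± 12.5 and 134 ± 19.6). In ND-75KDweak heads w came first (194 ± 16.8 CPM per kb), ahead of Pu (143 ± 30.0), but the ranges of these neighbours overlapped. Next came se (64.0 ± 13.9), v (63.7 ± 4.23) and pr (61.8 ± 8.84), which were not separated. In ND-75KDstrong and control heads w followed v, at 32.4 ± 4.33 and 28.5 ± 8.85 CPM per kb, and overlapped with it. ry, bw and st followed in that order in all 3 genotypes, with means of at most 20.8 CPM per kb. The ranges of bw and st overlapped in each genotype, and in control heads so did those of all neighbours from Pu down to st. y (3.34 ± 0.685 in ND-75KDstrong, 1.85 ± 0.177 in ND-75KDweak and 0.963 ± 0.587 in control) and cn (0.0669 in ND-75KDstrong, 0.0506 in ND-75KDweak and 0.0550 in control) were last and separated from the rest in every genotype.

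The genes with the pattern most like each marker were found by the root mean square difference of log2 CPM, centred on each gene, over the 12 libraries and 9870 protein-coding genes. For w these were CG43182 (0.28), CG11634 (0.43) and Cpr50Ca (0.56), with w itself at 1.29 from its own mean. All 3 had few counts, at most 7 per library outside ND-75KDweak and 7 to 18 within it. For v they were CG3246 (0.22), Nepl19 (0.24) and Cyp4ac1 (0.26), against 0.60 for v from its mean. For y they were FANCI (0.47), CheB53a (0.52) and tilB (0.55), against 0.97. The genes nearest to y were themselves low, at 0.942, 1.07 and 0.778 CPM on average in ND-75KDstrong, 0.764, 0.855 and 0.601 CPM in ND-75KDweak and 0.389, 0.286 and 0.495 CPM in control heads.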

How the data were processed

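Heads of 12 pools were sequenced as described above. Per the submitters' processing notes, reads were trimmed with fastp, aligned with HISAT2 and assigned to features with featureCounts, and DESeq2 was used for the comparisons of the study. The sources used here give neither versions nor the build, nor how shared reads were counted. The authors deposited raw counts per feature in 3 tables, with coordinates that match the Ensembl 115 annotation of BDGP6 for 17515 of 17530 features with a shared ID. A library had the same counts in every table that held it (0 differed). The deposited columns of normalised counts and FPKM per library (48) were not used, nor were the fold changes and p-values of the authors. The deposited gene lengths, in bases, served for CPM per kb.

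R 4.3.3 was used with the packages DESeq2 (1.42.0), limma (3.58.1) and edgeR (4.0.16). Tables and plots were made with matplotlib 3.10.9, pandas 2.3.3 and numpy 2.4.6 under Python 3.11.15. For each comparison of 4 against 4 libraries, filterByExpr took out low features (its count minimum was 10 and its minimum sum 15), TMM factors were computed, and glmQLFit and glmQLFTest were run over all features with Benjamini-Hochberg adjustment at 0.05. The F statistic of each log2 fold change gave its standard error and 95% interval. The prior count for log2 CPM was 2. The procedure was tested on counts simulated under the model that edgeR assumes. That simulation held no outlying library and so cannot show how such libraries affect the calls. The p-values measure the spread between pools, and nothing states that the pools came from separate crosses.

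The 10 members were taken by symbol. The members and the other gene lists were chosen with earlier results of these data known. Named are the members, ND-75, the overlapping and neighbouring genes of the members, sev as a marker of a stock, up to 3 called genes per list, direction and comparison with the smallest p, and the 3 nearest patterns of w, v and y. Alternatives were DESeq2, RLE factors, no filter, all 12 libraries in 1 fit, the replicate number as a block, loess offsets against gene length (span 0.5), leaving out transposable elements, leaving out each library, and leaving out 2 outlying libraries. No sequences were analysed here.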

Additional observations from a re-analysis of the deposited data

Results flagged for a closer look

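The 2 knockdowns differed from each other in 5 of the 9 tested genes by edgeR's test of the difference, with ND-75KDstrong minus ND-75KDweak on the log2 scale at −2.56 for w, 0.87 for y, 1.12 for pr, 0.89 for Pu and 1.32 for se. The direction held in 4 of 4 libraries for each, since the CPM ranges of the knockdowns did not overlap. In this comparison 10.6% of all features tested had a CPM range of ND-75KDstrong wholly above that of ND-75KDweak and 7.65% wholly below.

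In 3 of 30 groups of 4 libraries, 1 library lay apart from the other 3 by a larger share of the group's range than chance gives in about 1 of 20 groups. v in ND-75KDstrong had its highest library, replicate 4, at 85.5 CPM, against 33.3 to 40.9 CPM in replicates 1 to 3. st and Pu in ND-75KDweak had their highest library, replicate 2, at 39.7 and 403 CPM, against at most 32.9 and 284 CPM in the others. Crys, not a member, was also highest in that library, at 172 CPM against 53.5 to 65.5 CPM.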

How the results depend on the processing

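Of 16 alternatives per comparison, every one kept the calls of w, Pu, pr and se in ND-75KDweak against control and in ND-75KDstrong against ND-75KDweak. The adjusted p of Pu in ND-75KDweak against control reached 0.0497. In all, 152 of 160 alternatives of the 10 member calls kept them, and the 8 exceptions concerned y, whose call in ND-75KDstrong against control was also lost without transposable elements (adjusted p = 0.0506). Genes outside the members kept 722 of 831 calls and lost 109, with no change of sign. None of the 30 mean member levels moved by over 1 SD with plain library totals. DESeq2 called v lower in ND-75KDstrong than in ND-75KDweak (adjusted p = 0.0341), as did the fit with gene length trends removed (0.019).

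The number of members called higher in ND-75KDstrong against control, 1 in the report, was 0 without transposable elements, 0 to 1 when single libraries were left out and 2 without both outlying libraries, which also gave 1 called lower in place of 0. In ND-75KDweak against control 2 were called higher without both outlying libraries. In ND-75KDstrong against ND-75KDweak the number called lower was 2 with DESeq2, with gene length trends removed and without both outlying libraries, and 1 to 2 when single libraries were left out.

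Changes near 0 took the other sign under some settings, with no call. In ND-75KDstrong against control the log2 fold change of pr was 0.0036 with DESeq2, 0.0038 with RLE factors and 0.0084 with no filter, and without both outlying libraries those of st, pr, Pu and se were 0.03, 0.13, 0.14 and 0.17. Leaving out single libraries gave ranges of −0.26 to 0.042 for st, −0.31 to 0.016 for bw, −0.069 to 0.097 for pr, −0.25 to 0.035 for Pu, −0.47 to 0.055 for se and −0.12 to 0.043 for ry. In ND-75KDweak against control v was 0.10 and ry −0.036 with gene length trends removed, and v, st and bw were 0.37, 0.04 and 0.05 without both outlying libraries. Leaving out single libraries gave −0.27 to 0.32 for v, −0.16 to 0.11 for st, −0.19 to 0.11 for bw and −0.0018 to 0.15 for ry, and −0.13 to 0.0046 for st between the knockdowns. The cause was not tested.

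Libraries with the same replicate number did not deviate together (correlations −0.42 to 0.12), and those with unlike numbers gave −0.28 to 0.41. The numbers were therefore not used as pairs in the report's fit, and a shared batch was not tested. With the replicate block, 0 members were called higher in ND-75KDstrong against control (y, adjusted p = 0.106) and 2 were called lower in ND-75KDstrong against ND-75KDweak (v, 0.0399). The block gave 0.0019 for pr in ND-75KDstrong and 0.056 for v in ND-75KDweak against control, and changed no other member call. Over all features it called 114 higher and 28 lower in ND-75KDstrong against control, 266 and 430 in ND-75KDweak against control and 829 and 298 between the knockdowns.

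Counts over all features ran from 114 to 407 higher and 28 to 135 lower in ND-75KDstrong against control (187 and 62 in the report's fit), 139 to 628 and 202 to 906 in ND-75KDweak against control (267 and 414), and 597 to 1394 and 189 to 932 between the knockdowns (870 and 329). Depth limits cn, at 0 to 6 counts, and widens the error of y, at 15 to 252 counts.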
